A study of Sus scrofa with 2 samples.

Results

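The numbered zinc finger proteins are genes known mainly by a serial number, as in ZNF462 or zinc finger protein 91. Members were taken by name alone: a row entered if its gene name was ZNF followed by digits, or if its product description held "zinc finger protein" followed by a number. This gave 344 genes of the 21653 names in the table, 128 through the gene name and 216 through the product alone. The rule reads names and product descriptions and no counts. The rule also took 17 genes with a longer product name, such as JAZF1, CXXC5 and the PR domain proteins, and 3 rows of the C3H type, which bind RNA rather than DNA.

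Bulk RNA was sequenced on an Illumina instrument from brain and from liver of pigs (Sus scrofa) of the Rongchang breed. Per the labels, tissue was frozen in liquid nitrogen at collection and extracted with RNAiso plus, and 1 library was made per tissue. The labels state no treatment or genotype, and give neither the age and sex of the animals, nor the brain region or liver lobe, nor whether both organs came from 1 animal or from a pool. Both sample titles carry the same lane and barcode label and differ only in the letters A and B. The tissue of each library was taken from its source name. With 1 library per tissue there is no replicate check and no p-value, and every difference below is between these libraries.

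Most numbered zinc finger proteins are built from repeats of the C2H2 finger, a short fold held by a zinc ion that reads a few bases of DNA. The largest subgroup also carries a KRAB domain, which recruits TRIM28 and the chromatin silencing machinery, and many of its genes arose by tandem duplication and silence transposable elements. Others are activators, splicing and ribosome factors, or regulators of neuronal differentiation. A serial number is a label for a fold, not for a function.

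Counts summed to 23796843 for brain and 31724498 for liver. Levels are given as scaled CPM, counts per 1000000, with library sizes adjusted by TMM, a method that sets the bulk of genes to a ratio near 1. In these units 1 CPM is 35.0 counts in brain and 21.6 in liver. CPM are not corrected for transcript length, so levels are compared between tissues and not between genes. The log2 ratio is brain over liver after 1 CPM was added to each value, which understates the ratio of low genes, while folds are ratios of CPM without that addition. Intervals are 95% intervals for counting error only. The tissue labels were checked against marker genes: neuron markers (6 of 6 at 4-fold or more in brain) summed to 4661 CPM in brain and 12.5 in liver, and hepatocyte markers (6 of 6 in liver) to 305 and 390896 CPM. Astrocyte markers (4 of 4 in brain) summed to 914 and 13.8 CPM, oligodendrocyte markers (3 of 4) to 2637 and 28.8, and Kupffer cell markers (3 of 3 in liver) to 4.52 and 1213. Markers of dividing cells (2 of 3 rows in liver) summed to 58.0 and 234 CPM, and those of erythroid cells (2 of 5 in liver) to 89.5 and 297. Endothelium markers went both ways, with CLDN5 called in brain and PECAM1 and KDR in liver, and summed to 72.0 and 323 CPM. Microglia markers (1 of 3 rows in brain) summed to 94.7 and 77.3 CPM. Their part in the results below was not tested, and in bulk tissue fewer cells of a type and less RNA per cell cannot be told apart.

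Most numbered zinc finger proteins were detected in both organs, at low levels. Of the 344 members, 292 (84.9%) reached 1 CPM in brain and 263 (76.5%) in liver, against 66.5% and 60.9% of all genes. Both libraries reached that level for 260 members, brain alone for 32 and liver alone for 3, which were ZNF2, ZNF236 and a ZNF14-like row. Among all 21653 genes, 14407 reached it in brain, 13182 in liver and 15706 in at least 1 library. Thus more genes reached it in brain alone than in liver alone there too. The median member stood at 5.36 CPM in brain (quartiles 1.99 and 13.7) and 4.38 CPM in liver (quartiles 1.11 and 10.5). Only 7 members reached 100 CPM in brain and 6 in liver. No count was recorded for 8 members in brain and for 10 in liver, where 3 counts, the limit that a count of 0 allows, equal 0.0858 and 0.139 CPM.

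The share of a library's raw counts held by the members was larger in brain, but their summed level was near equal once scaled with TMM. Members held 157386 brain counts, 0.661% of the total (Wilson 95% interval 0.658 to 0.665%). In liver they held 97632 counts, 0.308% of the total (0.306 to 0.310%). A single gene, ZNF189, gave 22.4% of the liver counts of the members and 0.391% of those in brain. Without it the liver share was 0.239% (0.237 to 0.240%) and the brain share 0.659%. Plain shares of a library carry the difference that the median gene shows on that scale, a log2 ratio of 0.98. In TMM-scaled units the summed level of the members was 4503 in brain against 4520 in liver, and 4485 against 3507 without ZNF189.

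The ratios of the members lay close together. A gene was called, or counted as at 4-fold or more, when its log2 ratio with the added 1 CPM was 2 or more (brain) or -2 or less (liver). A filter of 1 CPM in either library left 295 members, of which 20 (6.78%) were at 4-fold or more in brain, where 14.6% of all 15706 genes past the same filter were. In liver 6 members (2.03%) were at 4-fold or more, against 11.3% of all genes. The other 269 lay within 4-fold, 91.2% of the members and 74.0% of all genes, and 202 lay within 2-fold (68.5% and 48%). From the 10th to the 90th percentile the log2 ratio ran from -0.91 to 1.72 for the members and from -2.17 to 2.71 for all genes. The remaining 49 members were below 1 CPM in both libraries.

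The centre of the members was on the brain side of that of all genes. The median log2 ratio was 0.42 over the 295 members and 0.02 over all genes, and 189 members (64.1%, against 50.3% of all genes) were above 0. Over all 344 members with no filter the median was 0.23. This centre depends on the scaling. Division by plain library size moved the median of all genes to 0.98 and that of the members to 1.23, and leaving the 50 highest genes out of the library sizes moved them to 0.47 and 0.81. The members' median was above that of all genes by 0.41 with TMM, 0.34 without the 50 highest genes and 0.25 with plain library size.

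**Figure D1:**
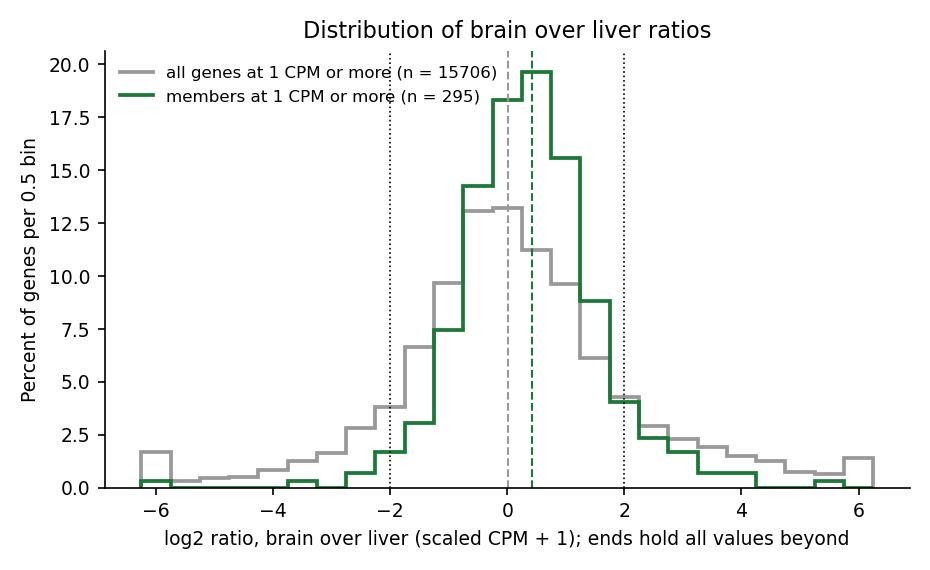
Share of genes per 0.5 bin of the log2 ratio, brain over liver (scaled CPM plus 1, TMM), for the 295 members and the 15706 genes at 1 CPM or more, with dashed lines at the medians and dotted lines at 4-fold. The members form the narrower and taller curve, with a median of 0.42 against 0.02, and the end bins hold all values beyond the axis.

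Plain library size also changed the counts of calls. With it 63 of 301 members (20.9%) were at 4-fold or more in brain, against 24.2% of all genes, and 2 (0.664%) in liver, against 6.02%. All 20 members called in brain with TMM were also called with plain library size, but of the 6 called in liver only ZNF189 and the ZNF345-like row were. A smaller addition of 0.1 CPM gave 36 members in brain (12.2%, against 20.6% of all genes) and 8 in liver (2.71%, against 14.9%). The share of members called was below that of all genes under each of these settings.

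**Figure D2:**
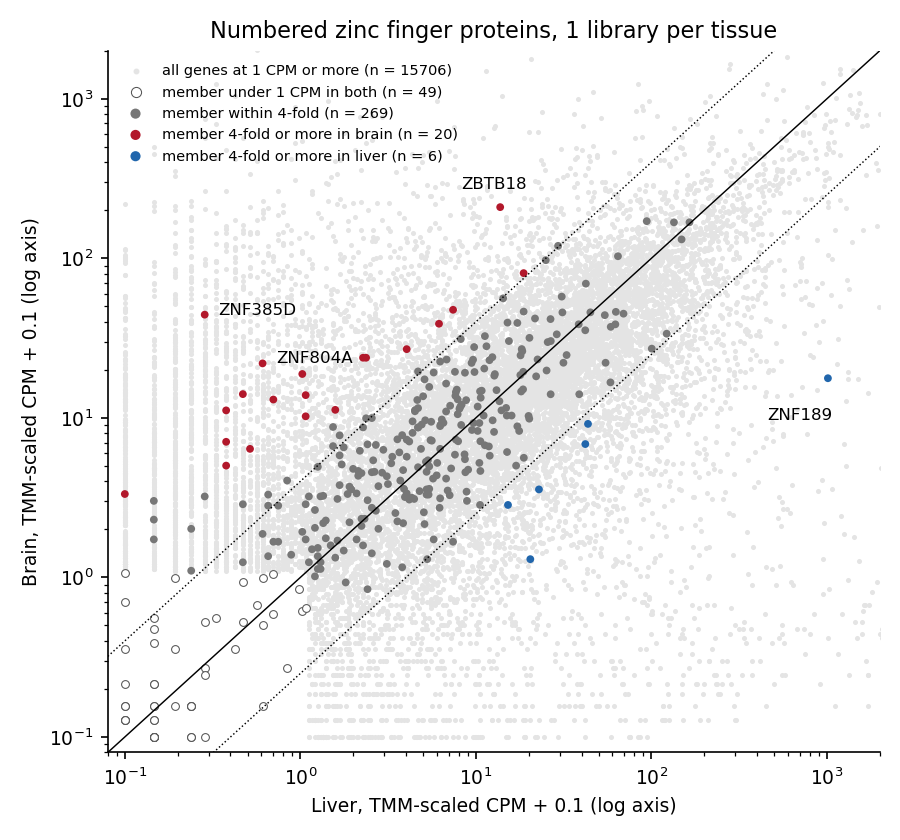
Brain against liver level of each member (TMM-scaled CPM plus 0.1, log axes), over the 15706 genes at 1 CPM or more in gray. Members lie along the diagonal at low levels, ZBTB18 is highest in brain at 209 CPM, ZNF189 stands alone at 1013 CPM in liver, and genes beyond the axis limits are not drawn.

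The low share of calls was seen at each level of expression. Where the higher library stood at 1 to 10 CPM, 4 of 160 members (2.50%) were called in brain and 0 in liver, against 8.50% and 3.94% of all genes. At 10 to 100 CPM, 15 of 125 (12%) were called in brain and 5 (4.0%) in liver, against 17.9% and 11.7%. At 100 CPM or more, 1 of 10 members was called in each direction, against 19.0% and 29.5% of all genes. Counting error widens at low levels, and the added 1 CPM pulls low ratios towards 0 in members and other genes alike.

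Of the 20 members called in brain, 6 have long genes. The table gives a length per gene that appears to be a genomic span, introns included. Of the 101 members under 10 kb, 3 (2.97%) were called in brain and 3 in liver, against 12.3% and 12.7% of all genes of that span. Of the 179 members from 10 to 100 kb, 11 (6.15%) were called in brain and 3 (1.68%) in liver, against 12.4% and 11.7%. Of the 15 members at 100 kb or more, 6 (40.0%) were called in brain and 0 in liver, against 31.3% and 5.93%. These 6 were ZNF385D, ZNF804A, JAZF1, ZNF827, ZNF536 and the ZNF91-like row, with spans from 118915 to 330216 bp. Long span did not go with a high ratio in each case: ZNF385B spans 321295 bp with a log2 ratio of 0.70, and ZNF609 spans 202728 bp with 0.00. Over these 15 members the median log2 ratio was 1.60, and over all genes of that span it was 0.95.

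**Figure D3:**
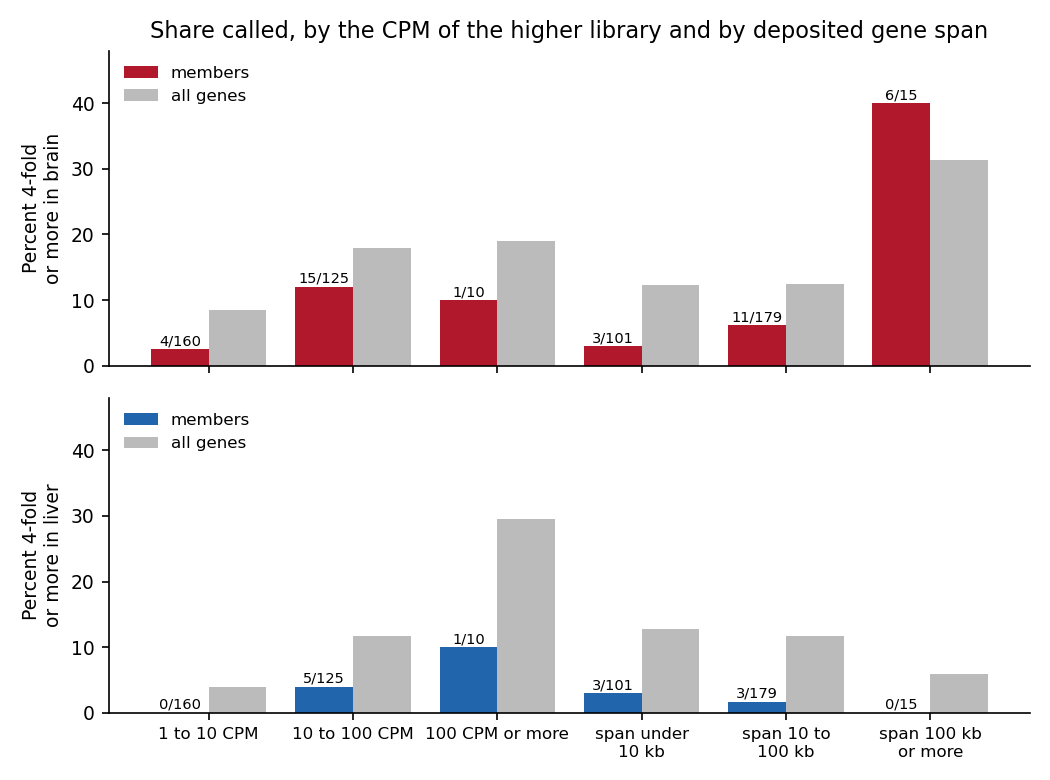
Percent of genes at 4-fold or more in brain (upper panel) and in liver (lower panel) for members (colored bars) and all genes (gray bars), by the CPM of the higher library and by deposited gene span. Member bars are below the gray bars in every class but 1, the brain share of genes spanning 100 kb or more (40.0% against 31.3%).

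Members with known roles in neurons held 7 of the 20 brain calls, on a list chosen with earlier results of these data known. A list of 19 symbols with reported roles in neural development or disease matched 19 rows. ZNF462, ZNF521 and ZNF81 matched a pair of rows each, and ZNF804B, ZNF41 and ZNF179 matched none. Of the 19 rows, 18 passed the filter, with a median log2 ratio of 0.83. Among these, 7 (38.9%) were called in brain and 0 in liver, against 14.6% and 11.3% of all genes. The 7 include both ZNF462 rows. With plain library size 9 (50%) were called in brain, against 24.2% of all genes, and the median was 1.86. ZBTB18, described in the table under its older name zinc finger protein 238, is a repressor needed for the growth and layering of the cerebral cortex. It had 7314 counts in brain and 295 in liver, or 209 and 13.7 CPM, a fold of 15.3 (13.6 to 17.3). ZNF804A, which lies at a locus linked to schizophrenia risk, had 764 and 11 counts, or 21.9 and 0.509 CPM, a fold of 42.9 (23.8 to 86.3). Both were clearly present in brain, and ZBTB18 was also well detected in liver.

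ZNF462, whose loss causes a human developmental disorder, has 2 adjacent rows with its product number in this annotation. Whether they are parts of 1 gene was not tested. The ZNF462 row had 452 brain and 13 liver counts (12.9 and 0.602 CPM), and the ZNF462-like row had 489 and 8 (14 and 0.370 CPM). Their log2 ratios were 3.12 and 3.45, so the pair entered the count of brain calls as 2 members. ZNF711, an X-linked gene mutated in intellectual disability, had 23.7 CPM in brain and 2.27 in liver, a fold of 10.5 (7.83 to 14.2). ZNF365, a centrosomal protein also known as DBZ, had 13.8 and 0.972 CPM, a fold of 14.2 (9.17 to 23.1). ZNF536, which restrains neuronal differentiation, had 6.98 and 0.278 CPM, a fold of 25.1 (11.4 to 69.1). These rows were below 3 CPM in liver.

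The other genes of the neural list lay on both sides of 0 and within 4-fold or below the filter. ZNF292, a large nuclear protein mutated in intellectual disability, had 39.3 CPM in brain and 17.1 in liver, a log2 ratio of 1.15. ZNF335, part of a histone methyltransferase complex and mutated in a form of microcephaly, had 19.3 and 18.5 CPM, a fold close to 1 with TMM and a log2 ratio of 1.11 with plain library size. ZNF674, an X-linked gene, had 358 and 343 counts, a log2 ratio of -0.59 with TMM and of 0.44 with plain library size. The lowest of the list was ZNF24, a regulator of oligodendrocyte maturation, with 2.92 CPM in brain and 8.80 in liver and a log2 ratio of -1.32. ZNF423, named after its values were seen, is a cerebellar and adipocyte factor. It had 19.1 and 5.65 CPM, a log2 ratio of 1.60.

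The largest ratio of all members was that of ZNF385D, which is not on the neural list. It had 1547 counts in brain and 4 in liver, or 44.3 and 0.185 CPM, a fold of 239 (93.1 to 878) whose width is set by the liver count. Its relative ZNF385B had 2422 and 912 counts, or 69.3 and 42.2 CPM, a fold of 1.64 (1.52 to 1.77). ZNF385A, which binds RNA and was named after its values were seen, had 31.1 and 8.10 CPM and a log2 ratio of 1.82. ZNF385C had 34 and 0 counts and was below 1 CPM in both libraries. Each of the 4 had more counts in brain than in liver.

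Cofactor proteins and rows that resemble factors of other kinds were also among the brain calls. JAZF1, a subunit of a histone acetyltransferase complex, had 655 and 20 counts, or 18.7 and 0.926 CPM, a fold of 20.2 (13.0 to 33.3). The CXXC4-like row, whose product resembles an inhibitor of Wnt signalling, had 386 and 6 counts, or 11 and 0.278 CPM, a fold of 39.7 (18.1 to 109). The row next to it is also described as CXXC4-like and had 0 brain and 1 liver count. ZNF827, a partner of the NuRD remodelling complex, had 829 and 47 counts, or 23.7 and 2.18 CPM, a fold of 10.9 (8.12 to 15.0). The FEZF2-like row, whose product resembles a factor that specifies deep-layer projection neurons, had 113 counts in brain and 0 in liver. With 3 counts set in place of the liver count of 0, its level was 23.3-fold higher in brain. The exact interval of the fold, which also allows for error in the brain count, began at 18.6.

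No role is given here for the other brain calls. The ZNF91-like row had 1660 and 158 counts, or 47.5 and 7.32 CPM, a fold of 6.49 (5.51 to 7.69). ZNF667 had 2820 and 402 counts, or 80.7 and 18.6 CPM, a fold of 4.33 (3.90 to 4.82), and it was the only brain call whose interval reached below 4. The 5 brain calls outside the rule for named genes were the ZNF580-like, ZNF821, ZNF280D-like, ZNF420-like and ZNF709-like (LOC100737823) rows. They had log2 ratios from 2.21 to 2.50 and brain counts from 172 to 939.

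**Figure D4:**
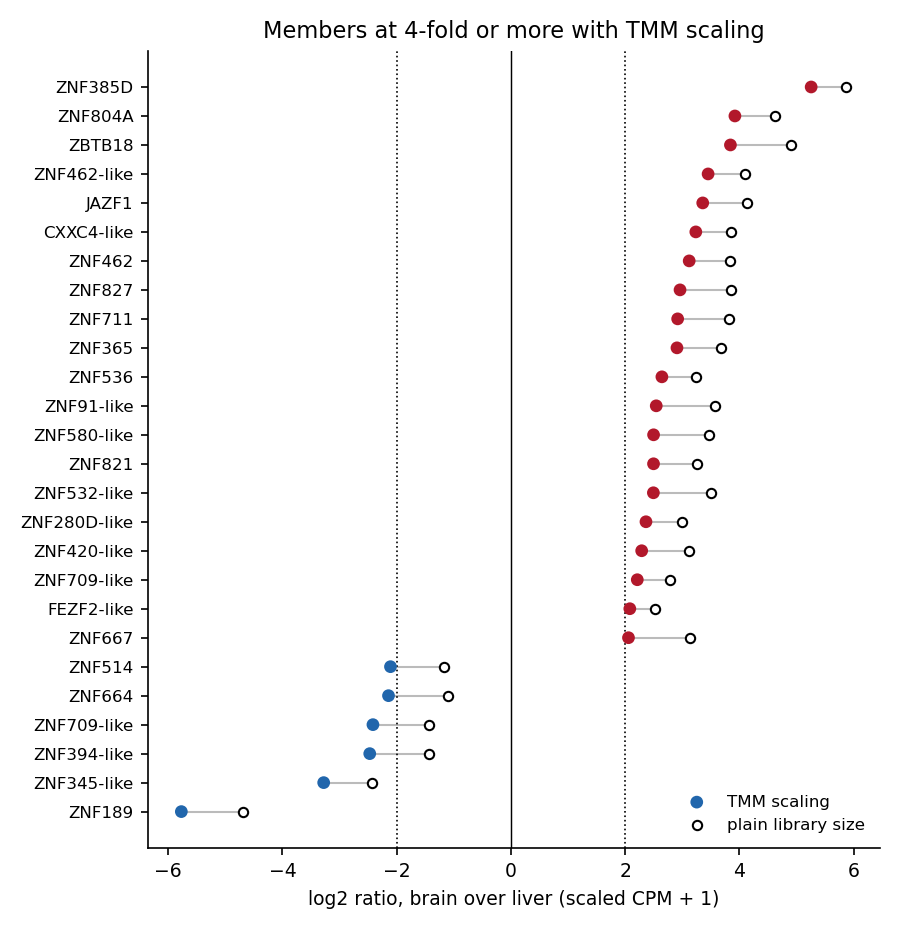
Log2 ratio, brain over liver, of the 26 members at 4-fold or more with TMM (filled, red in brain and blue in liver) and the same members with plain library size (hollow), with dotted lines at 4-fold. Plain library size moves each point to the right, and of the liver calls only ZNF189 at -4.68 and the ZNF345-like row at -2.42 stay beyond the line.

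Liver held few calls, and 1 of them was far from the rest. ZNF189 had 616 counts in brain and 21882 in liver, or 17.6 and 1013 CPM, 57.5-fold higher in liver (53.1 to 62.4). On the log2 scale this was -5.77 with TMM and -4.68 with plain library size. The strand setting of the counting is not given in the sources used here, so for this and other members reads of overlapping genes cannot be told apart.

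The other 5 liver calls had modest levels. The ZNF345-like row had 42 and 439 counts, or 1.2 and 20.3 CPM, 16.9-fold higher in liver (12.3 to 23.8). The ZNF394-like row had 236 and 906 counts, or 6.75 and 41.9 CPM, 6.21-fold higher in liver (5.38 to 7.20). The ZNF709-like row LOC100521431 had 121 and 492 counts, 6.58-fold higher in liver (5.38 to 8.10). ZNF514 had 96 and 327 counts, 5.51-fold higher in liver (4.38 to 7.0). ZNF664 had 317 and 938 counts, 4.79-fold higher in liver (4.21 to 5.46). The ZNF394-like, ZNF709-like, ZNF514 and ZNF664 rows had log2 ratios from -1.09 to -1.44 with plain library size and were then not called.

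No member on the list for RNA, translation or ubiquitin was called with TMM. A list of 19 symbols matched 10 rows, all past the filter, with a median log2 ratio of 0.50 (range -0.61 to 1.87). There were 0 calls in either direction among these 10, against 14.6% of all genes in brain and 11.3% in liver. With plain library size 4 (40%) were called in brain, against 24.2% of all genes, and the median was 1.38. ZNF74, named after its values were seen, came closest, with 680 and 99 counts and a fold of 4.24 (3.43 to 5.29) that the added 1 CPM brought to a log2 ratio of 1.87. ZNF638, a nuclear protein that recruits silencing complexes to foreign DNA, had 5877 and 3558 counts, or 168 and 165 CPM, a fold of 1.02 (0.979 to 1.06). ZNF622, which takes part in maturation of the large ribosomal subunit, had 44.9 and 69.3 CPM. Its log2 ratio was -0.61 with TMM and 0.48 with plain library size. ZNF207, a spindle assembly protein, had 43.9 and 54.2 CPM and log2 ratios of -0.30 and 0.79 under the same settings. The ZNF326-like row, named for a factor that couples transcription to splicing, had 35.3 and 41.9 CPM and log2 ratios of -0.24 and 0.84. For the last 3 of these the direction turned with the scaling.

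General transcription and chromatin members were centred near equality. The list of 19 symbols matched 21 rows, of which 19 passed the filter, with a median log2 ratio of 0.02. ZNF687, ZNF644 and ZNF76 matched a pair of rows each, and ZNF274 matched none. Of the 19 rows, 1 (5.26%) was called in brain and 0 in liver, against 14.6% and 11.3% of all genes. With plain library size 2 (10.5%) were called in brain, against 24.2% of all genes, and the median was 0.98. The TMM call was the ZNF532-like row, with 1356 and 131 counts, or 38.8 and 6.07 CPM, a fold of 6.40 (5.34 to 7.71). ZNF609, which acts with the cohesin loader NIPBL, had 38.5 and 38.4 CPM. ZNF143, an activator of small nuclear RNA genes found at chromatin loop anchors, had 29.8 and 25.6 CPM. ZNF148, a factor that binds GC-rich promoters, had 41.5 and 26.5 CPM and a log2 ratio of 0.63. ZNF281, a regulator of pluripotency genes, stood at the other end with 946 and 2168 counts, or 27.1 and 100 CPM, 3.71-fold higher in liver (3.43 to 4.01).

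Several of the members with the most counts lay within 4-fold between the organs. The highest member of each library, ZBTB18 in brain and ZNF189 in liver, was called, as was ZNF667. ZFP91, a ubiquitin ligase that acts on NF-kappa-B signalling, had 5974 and 2030 counts, or 171 and 94.0 CPM, a fold of 1.82 (1.73 to 1.91). ZRANB2, a splicing protein with RanBP2-type fingers that the table calls zinc finger protein 265, had 168 and 134 CPM, a fold of 1.25 (1.2 to 1.31). CXXC5, which binds unmethylated CpG, had 131 and 148 CPM, a log2 ratio of -0.18 with TMM, 0.28 without the 50 highest genes and 0.93 with plain library size. ZNF3 had 103 and 64.4 CPM, and ZNF75D had 46.1 and 62.6. The log2 ratio of ZNF75D was -0.43 with TMM and 0.65 with plain library size. ZNF428 had 97.3 and 24.9 CPM, a fold of 3.90 (3.56 to 4.28). The ZNF850-like row LOC100737218 had 120 and 29.3 CPM and was just under the threshold at a log2 ratio of 1.99.

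The C3H-type rows lay on the liver side or near 0. ZFP36L1, which promotes decay of messages with AU-rich elements, had 1174 and 2638 counts, or 33.6 and 122 CPM, 3.64-fold higher in liver (3.39 to 3.90). The ZFP36L2 row LOC100513591 had 172 and 364 counts and a log2 ratio of -1.59, and the row named ZFP36L2 had 182 and 110 counts and 0.03. Among the 12 lowest log2 ratios were also ZNF330 (16.6 and 58.3 CPM, log2 ratio -1.75), the ZNF330-like row (-1.69) and ZNF518A (2.75 and 10.5 CPM, -1.61). None of these was called, although the ZNF330-like row, with 55 and 158 counts, was 4.65-fold higher in liver (3.4 to 6.44) without the added 1 CPM.

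Counting error was small for most members but not for all. The interval of the fold lay wholly beyond 4 for 19 of the 20 brain calls and for all 6 liver calls. It held 1 for 54 of the 295 members. Another 19 members had a brain fold of 4 or more without the added 1 CPM, and for 6 of them the interval lay wholly beyond 4. Of these 6, all named after their values were seen, ZNF311 had 102 and 1 counts, a fold of 63.0 (11.1 to 2513), and ZNF404 had 77 and 1, a fold of 47.6 (8.29 to 1903). The other 4 were ZNF37A and the ZNF268-like, ZNF396-like and ZNF821-like rows. In liver 2 uncalled members had a fold of 4 or more, and 0 had an interval wholly beyond 4.

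Chromosome 6 carried 90 members, 26.2% of them, although it carries 8.34% of all genes in the table. Chromosome 3 followed with 34, chromosome 2 with 29 and chromosome 7 with 22, chromosome 11 had 0, and 25 members were on unplaced sequence. On chromosome 6, 82 members passed the filter, 6 (7.32%) were called in brain and 1 (1.22%) in liver, with a median log2 ratio of 0.67. Elsewhere 213 passed, 14 (6.57%) were called in brain and 5 (2.35%) in liver, with a median of 0.21. With plain library size these medians were 1.51 and 1.11. Neither was taken over all genes of chromosome 6, so whether the difference is a trait of the members or of the chromosome was not tested. The table gives a chromosome for each gene but no start or end.

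**Figure D5:**
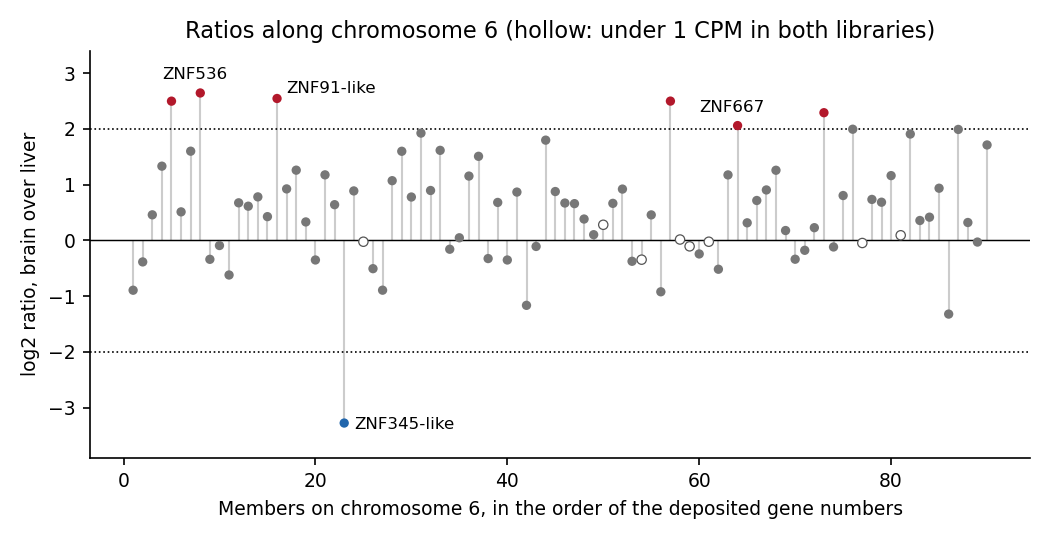
Log2 ratio, brain over liver, of the 90 members on chromosome 6 in the order of the deposited gene numbers (evenly spaced, not to scale), with dotted lines at 4-fold. Most points lie above 0 and within 4-fold, and the ZNF345-like row at -3.28 and the ZNF91-like row at 2.54 lie in 1 run of neighbours.

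Members stood in runs along the table. With at most 10 gene numbers between neighbours, 15 runs of 5 or more members held 112 of the 319 placed members, and 109 had no other member within 10. The longest run, on chromosome 6 from ZNF567 to ZFP30, held 13 members, all past the filter. Of these 11 were above 0, with a median of 0.67, and the run held 1 call in each direction: the ZNF91-like row at 2.54 and the ZNF345-like row at -3.28. The run from ZNF175 to ZNF350 held 11 members, 8 of the 10 past the filter were above 0, and the median was 0.66. The run from ZNF646 to ZNF48 on chromosome 3 held 7 members, 3 above 0, with a median of -0.48 with TMM and 0.49 with plain library size.

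Neighbourhood was also read from the gene order of a reference annotation of another assembly. There 246 members were matched, and 63 had another member as the next protein-coding gene. Of those 63, 59 passed the filter, with 3 (5.08%) called in brain, 2 (3.39%) in liver and a median log2 ratio of 0.48. Of the 183 with none next to them, 168 passed, with 12 (7.14%) called in brain, 2 (1.19%) in liver and a median of 0.33. Of all genes 14.6% were called in brain and 11.3% in liver. These are descriptions, and whether neighbouring members share their origin was not tested.

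Some members share a product number. There were 268 distinct numbers over all members. With the longer product names and the C3H type left out, 48 numbers belonged to 2 or more members. In 31 pairs the rows lay at most 10 gene numbers apart, and in 19 pairs both rows passed the filter. Their log2 ratios differed by a median of 0.55, with 12 of 19 pairs within 1 and 10 of 19 on the same side of 0. Among 112 near pairs with different numbers the median difference was 0.85, with 64 within 1 and 62 on the same side. The ZNF521 rows had log2 ratios of 0.36 and 0.42, whereas the ZNF644 rows had 0.94 and -0.29. Such rows can be parts of 1 gene or near-identical copies, and how the counting shared reads between them is not given in the sources used here.

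Of 20 listed symbols of the KRAB silencing pathway, sought only among genes that are not members, 16 had a row. ZFP57 is on that list, and a member row described as zinc finger protein 57 homolog had 21 brain and 0 liver counts. That row was below 1 CPM in both libraries. Of the 16, 1 (6.25%) was called in brain and 0 in liver, against 14.6% and 11.3% of all genes. Their median log2 ratio was -0.12 with TMM, 0.34 without the 50 highest genes and 0.92 with plain library size. The brain call was CHD3, a helicase of the NuRD complex, with 671 and 40.5 CPM and a log2 ratio of 4.02. HDAC2, a histone deacetylase, had a log2 ratio of 0.50, and MPHOSPH8, a subunit of the HUSH silencing complex, had 0.76. CBX3, a heterochromatin protein, had -0.23 with TMM and 0.86 with plain library size. TRIM28, the corepressor that KRAB domains bind, was not matched to a row and was not analysed here.

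Among zinc finger families named by other schemes, the ZIC and EGR families stood highest in brain. Of 78 such rows 64 passed the filter, 10 (15.6%) were called in brain and 4 (6.25%) in liver, against 14.6% and 11.3% of all genes, with a median log2 ratio of 0.46. The ZIC family, factors of cerebellar and forebrain development, had 4 of 5 called in brain and a median of 2.25. The EGR family, activity-induced factors in neurons, had 3 of 4 called in brain and a median of 3.10. The ZBTB family had 1 of 25 called in brain and 2 in liver, and the KLF family had 1 of 15 in each direction, with KLF15 at -3.62. No difference between these families and the numbered members was tested.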

How the data were processed

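RNA-seq counts per gene for 1 brain and 1 liver library were used as deposited by the authors. That the values are raw counts was read from whole numbers with different totals. The submitters' processing notes name TopHat and the build Sscrofa10.2 (susScr3). Not given in the sources used here are the counting program, its strand setting and its treatment of shared reads. The gene length in the table, also deposited by the authors, has no stated definition.

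Each member had 1 of the 21817 rows, so no rows were summed. Of 196 members with a LOC name, 87 received a symbol by gene number from a RefSeq gene table of another assembly, Sscrofa11.1, used only for names and gene order. Library sizes were adjusted by the TMM method (edgeR 4.0.16 under R 4.3.3), and no test was run. Members and genes needed 1 CPM in at least 1 library, the pseudocount was 1, and a call needed 4-fold. Fold intervals are exact conditional binomial 95% intervals, shares have Wilson intervals, and a count of 0 was set to 3 counts to give a finite fold. The calling code was tested on simulated data.

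The members, gene lists and marker lists were chosen with earlier results of these data known. Named genes were the 10 highest members in each library, the 12 highest and 12 lowest ratios, passing members with 0 counts in 1 library, and from each list the 4 highest mean levels and the calls. Genes named outside this rule were chosen after their values were seen. Alternatives were other pseudocounts, filters, fold thresholds, scalings (DESeq2 1.42.0 size factors among them) and choices of members. Splits by KRAB, SCAN or finger number and levels per coding length were planned, but need protein sequences, which were not used here.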

Additional observations from a re-analysis of the deposited data

How the results depend on the processing

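With no replicates, nothing here measures spread between animals, and no replicate was left out. No paired analysis was possible because each tissue has 1 library. Depth limits members with few counts, whose intervals are wide.

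The count of members called in brain was 20 of 295 in the report. Of the same 295 it was 36 with a pseudocount of 0.1, 6 with 5, 70 at 2-fold and 7 at 8-fold. It was 63 of 301 with plain library size and 42 of 306 without the 50 highest genes. Smaller sets gave 6 of 125 (4.8%) with ZNF-number names only and 8 of 146 without products called like. The liver count, 6 of 295 in the report, was 2 with a pseudocount of 5, 23 at 2-fold and 2 at 8-fold. It was 2 of 301 with plain library size, 2 of 125 with ZNF-number names only and 2 of 146 without products called like. Shares of all genes called were not computed for the pseudocount of 5, 2-fold, 8-fold or without the 50 highest genes. The members' median was 0.81 without the 50 highest genes and 1.23 with plain library size. Under the same settings the median next to another member was 0.90 and 1.29, and that of the general transcription list 0.45 and 0.98. With plain library size the KRAB partner list had 0.92 and the other families 1.17.

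With ZNF-number names only, 124 of 128 members were at 1 CPM or more in brain and 116 of 128 in liver. Without products called like these were 145 and 134 of 151. At 5 CPM 179 and 159 of 344 remained. The shares of counts were 0.229% and 0.148% with ZNF-number names only, 0.345% and 0.186% without products called like, and 0.239% in liver without ZNF189. Alternatives chosen after seeing the data merged rows by product number (16 in brain and 5 in liver of 257) or left out longer names and C3H types (17 and 6 of 281). Of 135 values of 45 named members under 3 other scalings, 124 kept their sign, and 0 of 21 called members reversed. The highest row in place of the sum, which changes library totals only since each member has 1 row, gave the same counts of calls and shares of 0.664% and 0.309%. The planned splits by protein domain were not run.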
